A study of Mus musculus with 3 samples.

Results

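The genes described here are 8 genes of prostate identity and androgen response, namely Fkbp5, Tmprss2, Hoxb13, Foxa1, Trp63, Sox9, Sord and Psca. They were chosen by name, and every noncontrol probe carrying 1 of these names was taken. That gave 11 of the 39429 distinct probes and 8 of the 30199 gene names on the array. Foxa1 and Sox9 were higher in the MXRA7-transfected cells, and Sord was slightly lower. Of the 4 probes of Trp63, only 1 was well above background, and its signal was lower in the MXRA7-transfected cells. The other Trp63 probes were at background in both lines, so no change could be read from them. The bright Trp63 probe holds a repeated triplet, and whether its signal came from Trp63 RNA was not tested. Fkbp5 was bright in both lines with no difference that held, and Hoxb13, Tmprss2 and Psca were not well above background in either line.

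RM1 cells come from a prostate cancer of the mouse, made by transforming prostate tissue with ras and myc. RM1-MXRA7 cells carry transfected MXRA7, and RM1-VE cells carry the control vector. Both were grown in serum with G418 and sampled on day 2 of exponential growth, and the labels do not say whether either line is a clone or a pool. Each of 3 two-colour Agilent arrays compared 1 RM1-MXRA7 sample in Cy3 with 1 RM1-VE sample in Cy5, and every probe thus had 3 log2 ratios, in which a positive value means more signal in RM1-MXRA7. The labels do not state whether the replicates were separate cultures, so p-values measure only the spread between these arrays.

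Steroid hormone receptors are held by the Hsp90 chaperone and its co-chaperones until hormone binds, after which they activate genes in the nucleus. Foxa1 is a forkhead factor that opens chromatin for such receptors, and Hoxb13 is a homeobox factor of the posterior body and the prostate. Luminal cells of the prostate secrete, while basal cells are marked by p63, the product of Trp63. Sox9 is an HMG-box factor needed for prostate bud growth in the mouse.

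A few sequences show what was measured. The 60-base probe of Trp63 that gave signal is shown whole because it holds a repeat, with the repeated triplets in capitals. Of the Foxa1 and Sox9 probes, which carry the main differences, the first 30 bases are given. All are from the array files and are written 5′ to 3′.
Trp63: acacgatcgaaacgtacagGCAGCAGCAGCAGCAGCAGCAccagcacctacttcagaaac
Foxa1: gcatggtttactccttttctttacagccga
Sox9: ataaaaccttaaagcgttcttataatatgg
The positions in the array files are on mm9, with no exon or UTR given. They are chr16:25871159-25871218 on the plus strand for this Trp63 probe, chr12:58641764-58641823 on the minus strand for Foxa1 and chr11:112648809-112648868 on the plus strand for Sox9.

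Whole-array facts bear on all values. Between 21787 and 24181 probes per channel and array were well above background, and Pearson's r between the log2 ratios of 2 arrays was 0.778 to 0.846 across probes, which are not independent replicates. Since RM1-MXRA7 was in Cy3 on every array, a probe's dye bias cannot be told apart from a true difference. The ratios also ran along the rows of the arrays, and a smooth surface over the array took 34.3%, 33.1% and 25.5% of their variance. A gene is said to have risen or fallen only where limma's adjusted p was past 0.05 in the same direction before and after removal of that surface. The transfected gene did not check the labels. The brighter Mxra7 probe had a log2 ratio of 0.31 ± 0.14 (SD, n = 3) before and -0.0070 ± 0.05 after removal, and the dimmer probe had 0.10 ± 0.04 and 0.073 ± 0.06, so directions rest on the stated dyes.

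The first question was which of the genes RM1 cells express at all. By Agilent's flag for signal well above background on all 3 arrays, 5 of 8 genes were measured in RM1-MXRA7 and the same 5 in RM1-VE, namely Fkbp5, Sord, Foxa1, Sox9 and Trp63. Among all 30199 gene names, 16751 had a probe that passed this flag in at least 1 line. The 5 measured members exceeded the 99th percentile of 153 negative control spots in both lines on every array. On array 3 that percentile was 60.1 in Cy3 and 62.5 in Cy5, against at most 13.9 on the other arrays. Foxa1 and Sox9 in RM1-VE were only 1.43 and 1.56 times it there. Levels of different probes are not comparable on an array, so the genes are not ranked.

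**Figure D1:**
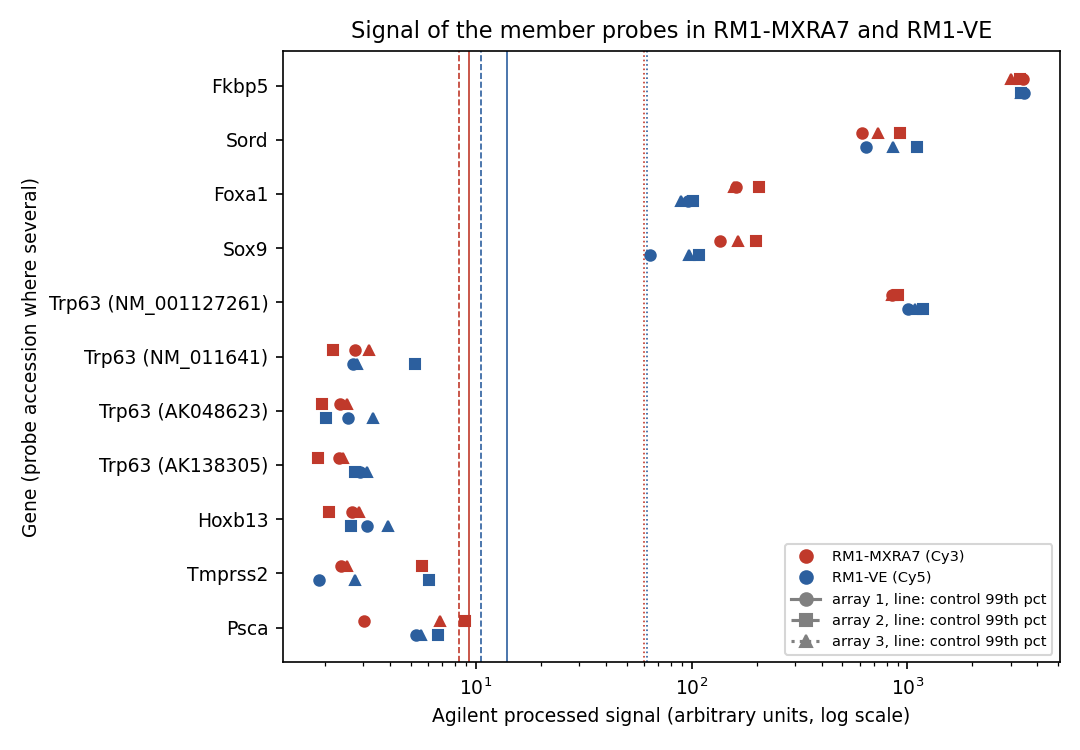
Agilent processed signal (arbitrary units, log axis) of the 11 probes in RM1-MXRA7 (red) and RM1-VE (blue), with a symbol for each array and vertical lines at the 99th percentile of the negative controls per array and channel. The 5 measured probes lie to the right of their lines, and the other 6 probes lie between 1.87 and 8.91.

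Hoxb13, Tmprss2 and Psca each had 1 probe, and none was flagged on any array in either line. Together with 3 probes of Trp63 these gave 6 silent probes, with processed signals of 1.87 to 8.91 in RM1-MXRA7 and 1.89 to 6.67 in RM1-VE. Of their 18 values per line, 1 exceeded its negative control percentile, that of Psca in RM1-MXRA7 on array 2, and 0 did in RM1-VE. Tmprss2 encodes a transmembrane serine protease induced by androgen in human prostate, and Psca a surface protein anchored by lipid, the prostate stem cell antigen. No fold change is given for these genes, because both lines are below the level at which a ratio can be read.

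Sox9 had the largest ratio of the 5 measured genes. Its processed signal was 135, 200 and 164 in RM1-MXRA7 and 64.2, 108 and 97.3 in RM1-VE on arrays 1, 2 and 3. The log2 ratios were 0.86, 0.79 and 0.63, with a mean of 0.76 ± 0.12 (SD, n = 3; limma adjusted p = 1.34e-06), or 1.69-fold higher. With the surface removed the ratio was 0.68 ± 0.09 (SD, n = 3; limma adjusted p = 4.12e-05), or 1.60-fold. Sox9 thus rose, and its ratio lay at the 99.2 percentile of all kept probes in both fits.

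The Sox9 probe was spotted 10 times on each array, which shows the array surface directly. These spots share their RNA and sequence and are not replicates. All 30 spot ratios were above 0, from 0.22 to 1.13, and they were highest in the first rows. On array 1 the 5 spots of lowest row number averaged 1.01 and the other 5 averaged 0.63, on array 2 they averaged 1.02 and 0.56, and on array 3 0.78 and 0.48. With the surface removed the spots lay between 0.46 and 0.88, and the corresponding means were 0.78 and 0.68, 0.76 and 0.65, and 0.63 and 0.54. The spot SD fell from 0.26, 0.28 and 0.23 to 0.11, 0.09 and 0.09, so a smaller trend remained. Spot values include 1 spot on array 1 with an outlier flag, which was left out of the Sox9 ratio given above.

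**Figure D2:**
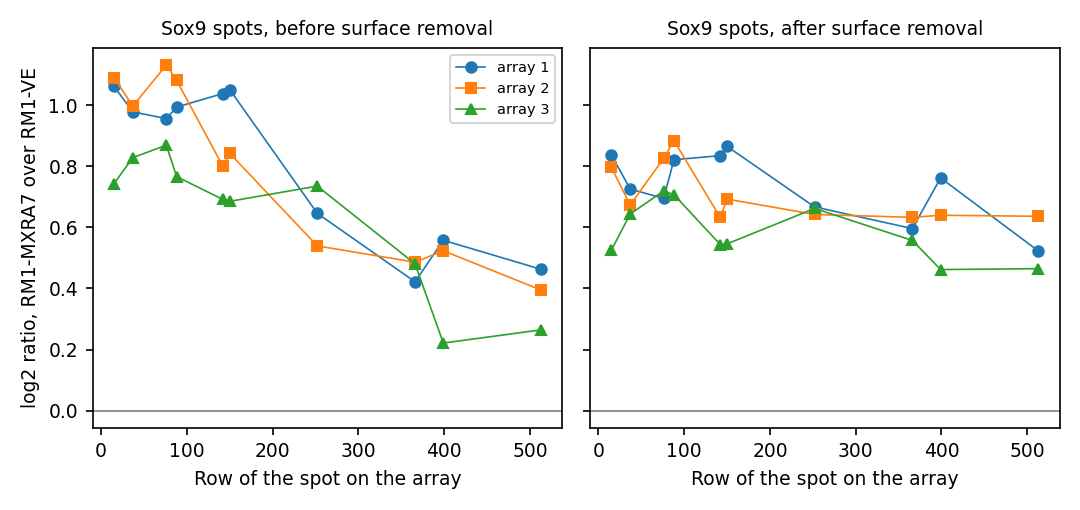
Log2 ratio of RM1-MXRA7 over RM1-VE for each of the 10 Sox9 spots per array against the row of the spot, before (left) and after (right) removal of the fitted surface, with 1 line per array. All 30 spots are above 0 in both panels, and the slope over rows is smaller on the right.

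Foxa1 rose as well. Its processed signal was 160, 205 and 157 in RM1-MXRA7 against 96.4, 102 and 89.4 in RM1-VE. The log2 ratios were 0.45, 0.66 and 0.61, with a mean of 0.58 ± 0.11 (SD, n = 3; limma adjusted p = 2.29e-05), or 1.49-fold higher. After surface removal the mean was 0.67 ± 0.12 (SD, n = 3; limma adjusted p = 6.6e-05), or 1.60-fold. Agilent's processed signals gave larger log2 ratios, 0.85 ± 0.14 for Foxa1 and 0.91 ± 0.16 for Sox9 (SD, n = 3).

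Trp63 gave opposite answers on whether it is expressed. The repeat-bearing probe shown above had processed signals of 847, 907 and 846 in RM1-MXRA7 and 1005, 1179 and 1081 in RM1-VE. The other 3 probes of the gene were at background in all samples, including the probe at chr16:25892012-25892071 (plus strand). The array files name 3 RefSeq transcripts for the bright probe and 4 for that silent one, with none named for both. No member probe has more than 4 entries there, so the lists may be incomplete and cannot show that the probes report different transcripts. On the bright probe the log2 ratios were -0.47, -0.51 and -0.58, with a mean of -0.52 ± 0.06 (SD, n = 3; limma adjusted p = 4.84e-05), or 1.43-fold lower. With the surface removed the ratio was -0.32 ± 0.07 (SD, n = 3; limma adjusted p = 0.00327), or 1.25-fold lower. The signal of this probe fell.

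The bright Trp63 probe holds 7 repeats of GCA in a row, from base 20 to base 40, and its GC content is 55.0%. The 3 silent Trp63 probes have 35.0% to 45.0% GC and at most 2 repeats of any triplet in a row. Elsewhere on the array, 5 probes of other genes hold at least 5 CAG repeats in a row and 5 hold at least 5 CTG repeats. All of these were well above background in both lines on all 3 arrays, whereas 55.3% of all probes were kept. The 5 CAG probes had a median log2 ratio of -0.27, and the 5 CTG probes had 0.09. Exact runs of 18 bases were shared with 2 probes of other genes, Crebbp and BC051142, and runs of 21 with 0. Whether the signal came from Trp63 RNA was not tested.

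Sord, the gene of sorbitol dehydrogenase, which turns sorbitol into fructose and is induced by androgen in human prostate, was slightly lower. Its processed signal was 613, 920 and 730 in RM1-MXRA7 and 644, 1106 and 853 in RM1-VE, so the lines overlapped although each array was lower in RM1-MXRA7. The log2 ratios were -0.29, -0.38 and -0.54, with a mean of -0.40 ± 0.12 (SD, n = 3; limma adjusted p = 0.00059). With the surface removed the mean was -0.18 ± 0.09 (SD, n = 3; limma adjusted p = 0.0452), or 1.14-fold lower. After surface removal the call was lost without replicate 2 (limma adjusted p = 0.259) and without replicate 3 (0.12), and Agilent's processed signals gave no call (0.0982). The 241 kept spots within 10 rows and 10 columns of the Sord spot had a median ratio of -0.21 before and -0.0024 after removal.

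Fkbp5 encodes a co-chaperone of steroid receptors and is induced by androgen and by glucocorticoid. Its processed signals were 3410, 3306 and 3018 in RM1-MXRA7 and 3481, 3338 and 3370 in RM1-VE, so the lines overlapped. The log2 ratios were -0.24, -0.09 and -0.33, with a mean of -0.22 ± 0.12 (SD, n = 3; limma adjusted p = 0.0292). After surface removal they were 0.04, 0.06 and -0.11, with a mean of -0.0046 ± 0.09 (SD, n = 3; limma adjusted p = 0.963). The call before removal was also lost without replicate 1 (0.118) and without replicate 3 (0.134), and Fkbp5 is not called here.

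**Figure D3:**
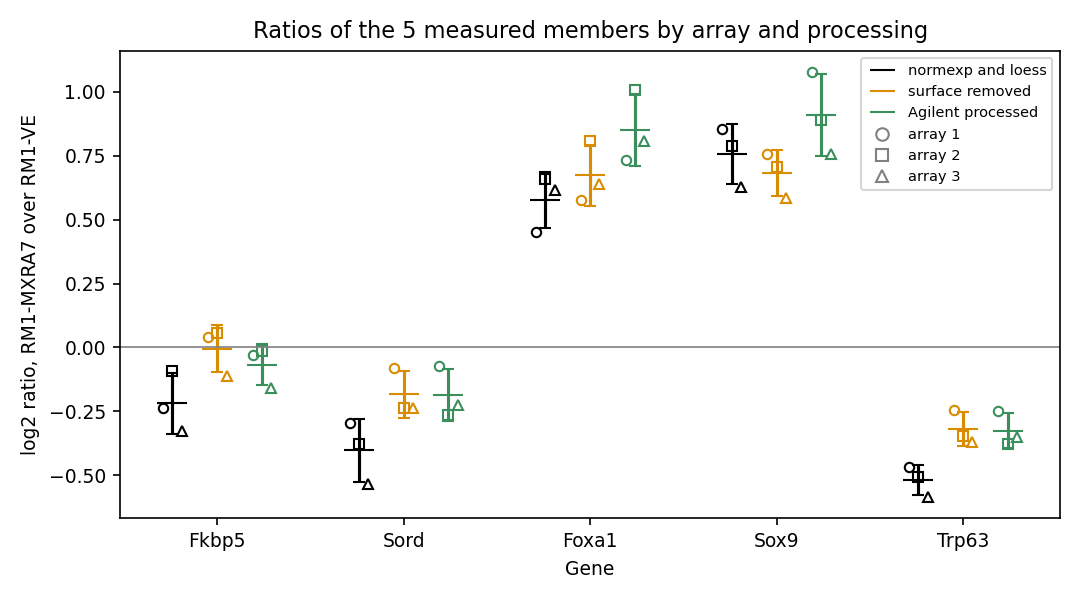
Log2 ratio of RM1-MXRA7 over RM1-VE for the 5 measured genes on each array (open symbols), with the mean and SD over 3 arrays, for normexp with loess (black), the same with the surface removed (orange) and Agilent's processed signals (green). Foxa1 and Sox9 lie above 0 and Trp63 and Sord below 0 on every array in all 3, while Fkbp5 lies on both sides of 0 once the surface is removed.

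Of the 5 measured probes, 4 were called in both fits, 2 higher and 2 lower. Among all 21791 kept probes 20.0% were called in both fits, 10.1% higher and 9.83% lower. Before surface removal 5 of 5 were called against 47.3% of all probes (47.4% of genes), and after it 4 of 5 against 30.5%. With 5 probes, no test of this count was made.

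The gene lists below were fixed by name, and for each gene the kept probe of highest intensity was used. Measured here means that a gene had a kept probe, flagged on all 3 arrays in at least 1 line. By that rule 16751 of all 30199 gene names were measured. The negative control percentile was not part of that rule. Of 16 genes of steroid receptor signalling, chaperones and cofactors, 14 were measured, 1 rose and 1 fell, where 10.2% of all 16751 genes rose and 10.5% fell. Ptges3, which encodes the co-chaperone p23, had a ratio of 0.66 (0.44 with the surface removed), but its 3 dimmer kept probes lay at -0.18, 0.36 and 0.28 and at -0.0091, 0.089 and -0.021 with the surface removed. Hsp90ab1, a gene for that chaperone, fell, with a ratio of -0.41 (-0.25 after surface removal). The Hsp90ab1 call was not made by Agilent's own processing (-0.13, limma adjusted p = 0.15).

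Of 75 further androgen response genes, known mostly from human cells, 64 were measured, 10 rose, 4 fell and 50 were not called. Among all genes 10.2% rose and 10.5% fell. The 10 include Lman1, with 0.35 (0.27 with the surface removed), whose other kept probe went the other way. That probe had -0.54 before and -0.29 after surface removal (limma adjusted p = 0.000107 and 0.0117). The median ratio of the 64 measured genes was -0.055 against -0.015 for all genes tested, and 0.027 against 0.013 with the surface removed. The largest differences were a fall of Akap12, a scaffold gene for protein kinase A, by 3.02-fold to a log2 ratio of -1.59 ± 0.07 (SD, n = 3), and rises of Pmepa1, Lifr and Selenop. Agilent's processing gave larger sizes for Akap12, at -2.29, and for Pmepa1, at 2.13. Pmepa1, a negative regulator of TGF-beta signalling, had 0.96 ± 0.25 (SD, n = 3) and was well above background in RM1-VE on 2 of 3 arrays. Lifr, the leukaemia inhibitory factor receptor gene, had 0.94 ± 0.27, with other kept probes at 0.97 and 0.19, and the selenoprotein P gene Selenop (Sepp1 on the array) had 0.85 ± 0.50 (SD, n = 3).

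Among glucocorticoid response genes, the receptor gene Nr3c1 rose on its brighter probe. Its log2 ratios there were 0.73, 0.91 and 0.87, with a mean of 0.84 ± 0.10 (SD, n = 3; limma adjusted p = 7.29e-07), and 0.52 with the surface removed. The dimmer Nr3c1 probe was not called, with a ratio of 0.20 (limma adjusted p = 0.0971). Of 7 genes in this list, all measured, 2 rose and 1 fell, beside the 10.2% of all genes that rose and the 10.5% that fell. The kinase gene Sgk1 rose by 0.46. The zinc finger gene Zbtb16 was lower, and it was not well above background in RM1-MXRA7 on any array. The Zbtb16 log2 ratios were -0.70, -0.59 and -1.997 on arrays 1, 2 and 3, so array 3 had by far the largest difference. Their mean was -1.09 ± 0.78 (SD, n = 3; limma adjusted p = 0.000174). As a mean over the arrays, and not on each of them, Zbtb16 was at least 1.88-fold lower. That bound sets the dim line at the lowest signal well above background, and it is open to dye bias.

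Of 15 other prostate regulators listed, 12 were measured, 3 rose, 1 fell and 8 were not called, beside the 10.2% of all genes that rose and the 10.5% that fell. Sox4, a relative of Sox9, had 0.85 ± 0.28 (SD, n = 3), with other probes at 1.27 and 0.25, and the homeobox genes Hoxa10 and Hoxa13 had 0.67 and 0.55. Hoxa10 lay at 0.42 with the surface removed, and Hoxa13 was well above background in RM1-VE on 2 of 3 arrays and lay at 1.34 by Agilent's own processing. Elf3, an epithelial ETS factor gene, fell, with -1.22 ± 0.07 (SD, n = 3), and with -2.13 by Agilent's processing. Its processed signal in RM1-MXRA7 was at most 19.6, below the negative control percentile of 60.1 on array 3. Of 23 close relatives of the 8 genes, 11 were measured, and the 2 that rose were Hoxa13 and Hoxc13, the latter with 0.30 (0.97 by Agilent's processing). Processed signals in RM1-MXRA7 were at most 35.9 for Hoxa13 and 48.9 for Hoxc13, also below 60.1.

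**Figure D4:**
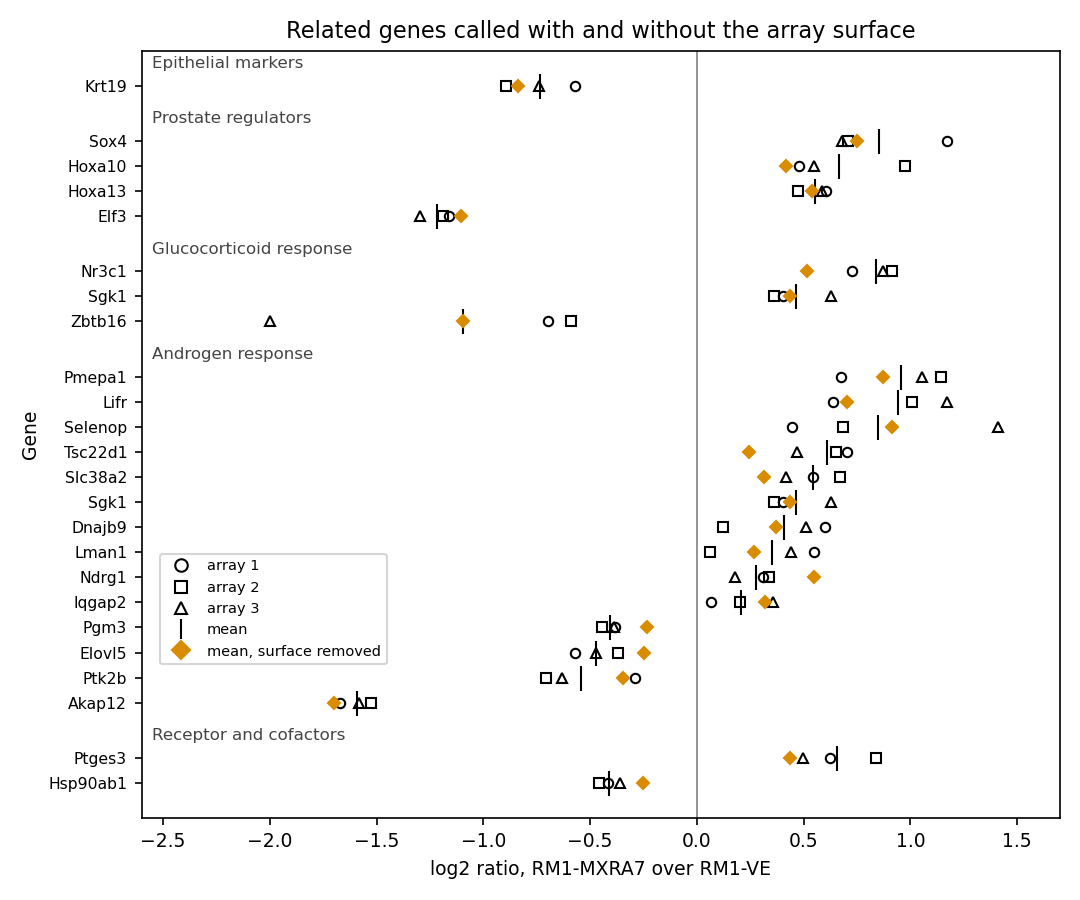
Log2 ratios of RM1-MXRA7 over RM1-VE on each array (open symbols), their mean (bar) and the mean with the surface removed (orange diamond) for genes of 5 lists that were called in both fits. Sgk1 is in 2 of the lists, Akap12 has the lowest mean at -1.59, and the arrays differ most for Zbtb16.

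The label of a prostate cancer cell line was set against marker genes. The counts below are to be read beside the 10.2% of all genes that rose and the 10.5% that fell. Counts of measured genes are to be read beside the 16751 of 30199 gene names measured. Of 12 prostate secretory genes 9 were not well above background in either line, among them the probasin gene Pbsn, and 0 of the 3 measured were called. Of 12 epithelial markers 5 were in neither line, namely Epcam, Cdh1, Krt5, Cldn3 and Cldn4. The 7 measured were the luminal keratin genes Krt8, Krt18 and Krt19, the basal keratin genes Krt14 and Krt15, and Cldn7 and Esrp1. Of these Krt19 fell, with -0.73 ± 0.16 (SD, n = 3). Processed signals in RM1-MXRA7 were at most 30.2 for Krt14, 31.5 for Krt15, 49.8 for Cldn7 and 30.5 for Esrp1. All are below the control percentile of 60.1 on array 3, and Krt15 was well above background in RM1-VE on 2 of 3 arrays. Of 10 mesenchymal markers 9 were measured, with 1 rise, Snai1 at 0.24 (-0.11 under median centring), and 1 fall, Acta2 at -0.71 (-1.36 by Agilent's processing). The processed signal of Acta2 in RM1-MXRA7 was at most 25.35, also below 60.1. Of 6 neuroendocrine markers 4 were measured, and Syp fell, with -0.30, a call not made by Agilent's processing (-0.22, limma adjusted p = 0.0513). Of 6 immune and endothelial markers 5 were measured in both lines, among them the leukocyte genes Cd68 and Cd3e, and the leukocyte gene Ptprc was in neither. Of the 5, Cdh5 fell, with -0.87, and its processed signal in RM1-MXRA7 was at most 44.7, also below 60.1. Of 5 progenitor surface genes 3 were measured, and Itga6 rose, with 0.52 (0.31 with the surface removed) and 0.73 on its other probe. The Itga6 call was not made by Agilent's processing (0.28, limma adjusted p = 0.115), and under median centring the ratio was -0.12. The part of these changes in the ratios of Foxa1 and Sox9 was not tested.

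The ratios most like those of Sox9 over the 3 arrays belonged to Adcy6, Smo and Rps6ka5, at Euclidean distances of 0.066, 0.070 and 0.077 on the log2 scale. With 3 values per probe and 21791 probes, near neighbours of this kind are many.

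Promoter sequence was in RefSeq's table (GRCm38.p6) for 4 of the 8 genes, Fkbp5, Foxa1, Sord and Tmprss2. That of Foxa1, which rose, is shown from 250 bases before its start up to the start, at chr12:57546112-57546361 on the minus strand, with the motif matches in capitals.
Foxa1 promoter: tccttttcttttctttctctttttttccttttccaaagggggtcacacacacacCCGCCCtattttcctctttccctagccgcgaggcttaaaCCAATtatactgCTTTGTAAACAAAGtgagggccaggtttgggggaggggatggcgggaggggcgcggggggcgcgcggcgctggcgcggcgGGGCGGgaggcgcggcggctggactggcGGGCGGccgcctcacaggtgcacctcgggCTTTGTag
Motifs were searched on both strands. The forkhead motif TGTTTAC lies at -141 relative to the start on the opposite strand, and 3.17% of 32536 promoters of this length hold it. The SOX motif ACAAAG matches 3 times in Foxa1, and the matches at -145 and -137 overlap the forkhead match. It is held by 16.5% of promoters and also by that of Fkbp5. GC boxes (GGGCGG) match 3 times and the CCAAT box once in Foxa1, and 33.0% and 33.8% of promoters hold them. The androgen response element (AGAACA, 3 bases of any kind, then TGTTCT) and AGAACA alone matched in none of the 4, against 0.00922% and 16% of all promoters. A TATA box (TATAAA) matched in none of the 4 and in 12.3% of all promoters.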

How the data were processed

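Per the file headers, the authors deposited Agilent Feature Extraction output (version 10.7.1.1, per the submitters' processing notes) holding raw spot intensity in Cy3 and Cy5, processed intensity after detrending and dye normalization, and a log10 ratio used only as a check. The authors' series matrix gives linear ratios, which equalled Cy3 over Cy5 processed signal within 1% for 100% of probes spotted once, with column medians of 1.02, 1.03 and 0.972. Here intensities were corrected by normexp (offset 50) and loess within arrays in limma 3.58.1 (R 4.3.3). Control spots and outlier flags were left out, and spots of a probe were averaged. A probe was kept if well above background on all 3 arrays in either channel. Log2 ratios of 21791 kept probes were tested against 0 with lmFit and eBayes (15.0 prior and 2 residual degrees of freedom), with Benjamini-Hochberg adjustment. The surface used polynomials of degree 4 over row and column, alone and times log2 intensity, fitted on kept probes. Steps were tested on simulated data. The array pairs the 2 lines, so replicate numbers are matched by construction. Members, lists and tests were chosen with earlier results of these data known. Genes named are the 8, up to 4 called genes per list with the largest ratios, Nr3c1, and the 3 nearest Sox9. The rule also names genes that are not reported here. Other markers are named after their values were seen.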

Additional observations from a re-analysis of the deposited data

How the results depend on the processing

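With all 3 arrays, 5 of the member probes and 10312 of all probes passed before surface removal, and 7939 genes did. With the surface removed 6653 probes and 5250 genes passed, of which 4 were members. Agilent's processed signals and the series matrix each gave 3 members and 5121 probes. Single channels gave 5 members and 10312 probes with the replicate block, and 3 members and 2700 probes with no replicate block. Leaving out 1 array gave 4 to 5 members and 6525 to 9309 probes, the lowest without replicate 2. Foxa1, Sox9 and Trp63 kept their direction and passed in all 15 alternatives run for each, with ratios of 0.36 to 0.85, 0.56 to 0.91 and -0.86 to -0.30. The 15 are not separate checks. For these genes the series matrix gave the same values as Agilent's processed signals, and single channels with the replicate block those of the reported fit. Sord passed in the reported fit and 10 of 15 alternatives, from -0.73 to -0.16. Fkbp5 turned to 0.048 with the surface removed and without replicate 3, an alternative added after seeing the data. Median centring moved the median of all probes to -0.27 and gave the lowest ratio of each member, and under it the ratios of Lman1, Ndrg1, Itga6 and Snai1 turned negative. The causes were not tested. Precision is limited by the 3 arrays. For Foxa1 and Sox9 it is also limited by RM1-VE signals of 1.43 and 1.56 times the negative control percentile on array 3.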
